A study of Homo sapiens with 18 samples.

Results

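LNCaP and 22Rv1, 2 human prostate cancer cell lines, were compared in their control state. The comparison used the arrays that the sample titles name as control, 3 of LNCaP and 3 of 22Rv1, which are 6 of the 18 arrays of a study of the homeobox transcription factor ONECUT2. Total RNA was read on Affymetrix Human U133 Plus 2.0 arrays, where each probe set reports the level of a transcript near its 3′ end. The other 12 arrays were 22Rv1 cells overexpressing ONECUT2, 22Rv1 cells with a scramble shRNA, 22Rv1 cells with an ONECUT2 shRNA and LNCaP cells overexpressing ONECUT2, with 3 arrays in each of the 6 groups. All cells grew in RPMI-1640 with 10% FBS. The treatment of both control groups is labelled vehicle, and 1 protocol text, shared by all samples, describes transduction with polybrene (5 µg/mL) and selection on puromycin (5 µg/mL) to make stable lines. It does not say whether the control cells were transduced, selected or carried an empty vector. Each group is 1 established cell line, and the labels leave it unsaid whether its 3 arrays are 3 cultures. The p-values therefore reflect array-to-array spread, which may be only technical.

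LNCaP was established from a lymph node metastasis of a prostate carcinoma, and 22Rv1 from a xenograft that regrew after castration of the host. Both lines are luminal-type adenocarcinoma cells that express the androgen receptor, a nuclear receptor that binds DNA when androgen is present and switches on prostate genes such as KLK3, which encodes prostate-specific antigen. Prostate tumours can also lose these luminal genes and gain neuroendocrine, neuronal or gut and liver genes, and lines differ in how far they have gone this way. Both lines received the ONECUT2 construct in the study, and the comparison asks how they differed without it.

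The deposited values are log2 expression values from GCRMA, so a difference of 1 is a 2-fold difference. Values below 4 were treated as background. Of 19775 genes with a probe set of their own, 12159 were tested, and 527 of these read under 4 on all 6 control arrays. Arrays of 1 line correlated at 0.997 to 0.9976 over all probe sets, and arrays of different lines at 0.9469 to 0.9475. The median SD within a group was 0.105 in both lines, while the median size of the difference between lines was 0.539. With so small a spread, 75.6% of the genes tested (9189) had an adjusted p under 0.05 in limma, 35.9% higher and 39.7% lower in LNCaP, and in 79% (9611) the 3 arrays of a line did not overlap with those of the other. A stricter 2-fold rule, which also asks for a difference of at least 1 in size, was therefore used for all counts below. It was passed by 3337 genes, or 27.4%, of which 1518 were higher in LNCaP (12.5% of the genes tested) and 1819 lower (15%). In 1030 of them the lower line read under 4 on all its arrays, and 47 read under 4 on all 6 arrays. Where the lower line read under 4 throughout, a fold is given as a bound against 4 ("at least N-fold"), although the adjusted p is that of the measured values. Where only some of its arrays read under 4, the measured values are used and the number of such arrays is given. Each list count below is to be read against the 12.5% and 15% of all genes. Differences are always LNCaP minus 22Rv1 on the log2 scale, with their standard error from limma.

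By the brightest probe set of each gene, large differences ran mostly in 1 direction. Of 607 genes that differed by 8-fold or more, 186 were higher in LNCaP and 421 were higher in 22Rv1. In 75 genes all LNCaP arrays read above 6 and all 22Rv1 arrays under 4, and the reverse held for 243. That probe set was chosen over all arrays of the study, most of which were 22Rv1. These counts were not repeated with another choice of probe set. The 2-fold rule gave 1518 higher and 1819 lower in LNCaP, but 1554 and 1768 with the probe set brightest on the control arrays. With the mean of all probe sets it gave 1161 and 1278. The median difference over all genes was -0.04, which normalization between arrays can set and which says nothing of total RNA. Because these are bulk RNA samples, fewer cells with a transcript and less of it in each cell cannot be told apart.

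**Figure D1:**
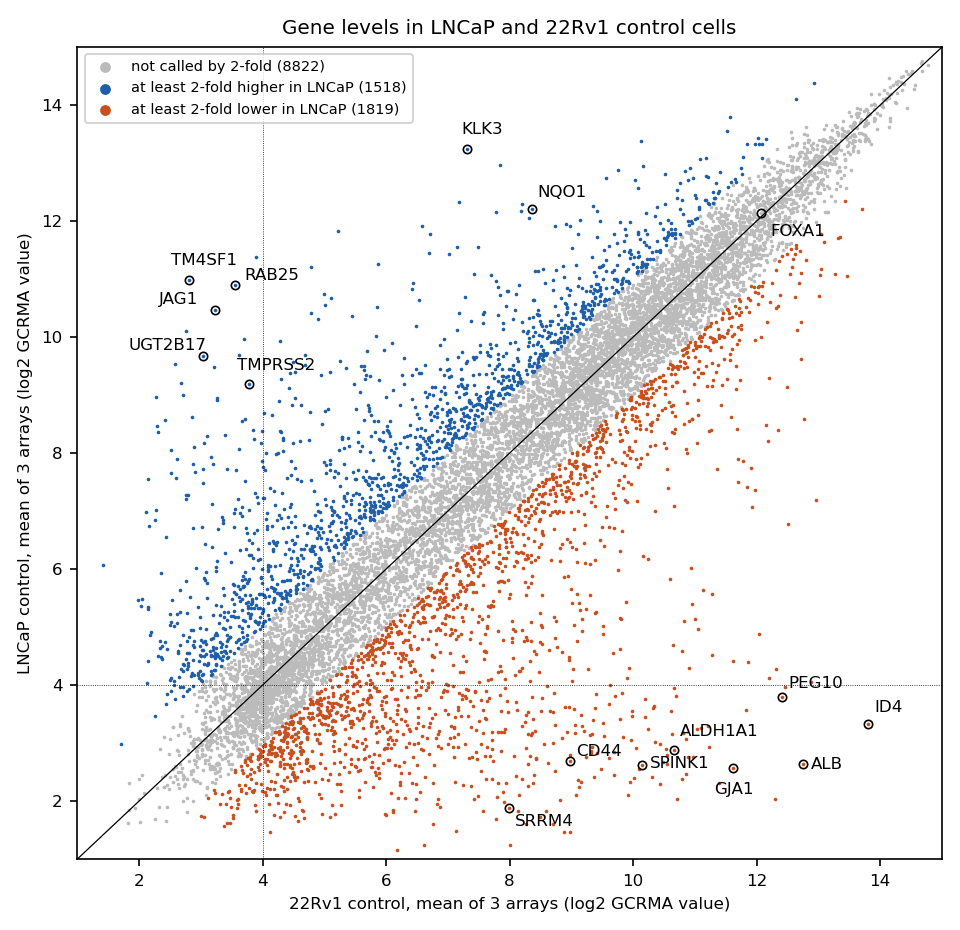
Mean log2 GCRMA value of each of 12159 genes in 3 LNCaP control arrays (vertical axis) against 3 22Rv1 control arrays (horizontal axis), with dotted lines at 4. Blue points are the 1518 genes higher in LNCaP by the 2-fold rule and orange points the 1819 lower, and FOXA1 lies on the diagonal while KLK3, RAB25, ID4 and ALB lie far from it.

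Both lines expressed several markers of luminal prostate epithelium, while other markers differed between them. Of 13 luminal markers tested, 7 were higher in LNCaP and 1 lower by the 2-fold rule, against 12.5% and 15% of all genes. TMPRSS2, 1 of these markers, read under 4 on all 22Rv1 arrays. KRT8, EPCAM, FOXA1 and HOXB13 read well above 4 on every array. KRT8 read 8.92, 9.32 and 9.19 on the LNCaP arrays and 7.83, 8.10 and 8.0 on those of 22Rv1. EPCAM read 12.31, 12.16 and 12.32 in LNCaP and 12.39, 12.33 and 12.48 in 22Rv1. FOXA1, the pioneer factor of luminal cells, averaged 12.14 ± 0.045 and 12.07 ± 0.064 (SD, n = 3), with overlapping arrays, a difference of 0.068 ± 0.055 and an adjusted p of 0.28. HOXB13, the prostate homeobox factor, averaged 9.30 and 9.22 (difference 0.075 ± 0.10, adjusted p = 0.528). Of 9 basal markers on the array, 5 failed the filter on low values, and the basal keratins KRT5 and KRT14 read under 3 on all 6 arrays. Of the 4 tested, 3 were higher in LNCaP by the 2-fold rule, namely the integrin ITGA6 (12.3-fold), the repressor SNAI2 (at least 15.3-fold) and S100A2 (at least 1.77-fold). Of 17 leukocyte and endothelial markers on the array, 16 failed the filter on low values, and the mean over the list was 2.82 to 2.90 in LNCaP and 2.87 to 2.91 in 22Rv1, with PTPRC and CD3E under 4 throughout. Of 12 stromal markers, 8 failed it. Among the 4 tested, LUM, a matrix proteoglycan, was at least 3.14-fold lower in LNCaP, and ACTA2, smooth muscle actin, was 5.12-fold higher, with 1 of 3 22Rv1 arrays under 4.

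Some of the array's control probe sets also differed between the lines. The 3′ minus 5′ difference of beta-actin was 2.94 ± 0.25 in LNCaP and 4.11 ± 0.41 in 22Rv1 (SD, n = 3, exact two-sided permutation p = 0.1, the smallest that 3 against 3 arrays can give). That of GAPDH was -0.68 ± 0.068 and -0.70 ± 0.086 (exact permutation p = 0.9). Probe sets for ribosomal RNA read higher in LNCaP, at 13.26 against 8.93 for the 5′ end and 10.70 against 7.34 for the 3′ end (exact permutation p = 0.1 for each). Their part in the differences between the lines was not tested.

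The genes with the largest excess in LNCaP included surface proteins, trafficking proteins and a steroid enzyme. TM4SF1, a membrane protein of the L6 family, read 11.17, 10.78 and 11.02 on the LNCaP arrays and 2.90, 2.82 and 2.72 on the 22Rv1 arrays. It was at least 127-fold higher in LNCaP (difference 8.18 ± 0.12, adjusted p = 1.33e-13). RAB25, a small GTPase of epithelial recycling endosomes, read 10.82, 10.95 and 10.90 in LNCaP and 3.62, 3.51 and 3.54 in 22Rv1, so that it was far above background in 1 line and below it in the other. The bound was at least 119-fold (adjusted p = 1.09e-13). JAG1, a membrane ligand of Notch receptors, read 10.32, 10.36 and 10.73 against 3.41, 3.12 and 3.14 and was at least 88.8-fold higher. All 4 of its probe sets that passed the filter on low values differed in this direction. ACKR3, an atypical receptor for the chemokine CXCL12, read 11.25, 11.39 and 11.51 against 3.75, 3.89 and 4.03, a difference of 7.50 ± 0.11 with 2 of 3 22Rv1 arrays under 4. In each of these genes every LNCaP array lay above every 22Rv1 array, which was a condition for naming them. Over all genes tested, the lines did not overlap in 79%.

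Other genes of this group spanned several roles. SLC30A4, which moves zinc out of the cytosol, read 11.84, 11.85 and 11.78 in LNCaP and 5.33, 5.26 and 5.08 in 22Rv1 and was 97.2-fold higher. MME, the surface peptidase neprilysin, was 86.6-fold higher, and ALDH1A3, which makes retinoic acid, was at least 51.9-fold higher. RUNX2, the master factor of bone formation, read 9.79, 8.45 and 8.76 against 2.64, 2.92 and 2.58. It had the widest spread among the LNCaP arrays of this group, yet its lowest LNCaP array lay far above 22Rv1 (bound at least 32.0-fold, adjusted p = 6.51e-10). The bounds were at least 68.7-fold for DNASE2B, a DNase II family enzyme, at least 46.2-fold for ATP11A, a phospholipid flippase, and at least 31.3-fold for EFS, a docking protein of the Cas family. They were at least 36.8-fold for NLRP2, a NOD-like receptor, at least 22.2-fold for S100A7, a calcium-binding protein also called psoriasin, and at least 24.5-fold for PCDHB5, a protocadherin. KLHL1 (at least 62.8-fold), C1RL (at least 44.8-fold), FCAMR, an Fc receptor for IgA and IgM (at least 23.7-fold), and ST6GALNAC1, a sialyltransferase (at least 20.6-fold), completed the list with UGT2B17 and KLK3, which are described among the androgen genes. In 16 of the 20 the 22Rv1 arrays all read under 4.

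The genes lowest in LNCaP relative to 22Rv1 had even larger differences. ID4, a helix-loop-helix protein that blocks DNA binding of its partners, read 13.80, 13.76 and 13.84 on the 22Rv1 arrays and 3.36, 3.47 and 3.17 in LNCaP. It was at least 890.3-fold lower in LNCaP (difference -10.47 ± 0.097, adjusted p = 9.84e-15). All 4 of its probe sets that passed the filter on low values went this way. RGS2, which shortens G protein signals, read 12.04, 12.53 and 12.33 in 22Rv1 and 1.81, 2.21 and 2.09 in LNCaP, or at least 315-fold lower. ALB, the serum albumin of liver, read 12.81, 12.60 and 12.85 in 22Rv1 and 2.65, 2.54 and 2.75 in LNCaP (at least 431-fold lower, adjusted p = 2.23e-14). All 3 read above 12 on every 22Rv1 array and under 4 on every LNCaP array.

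Below them came genes of metabolism, junctions, matrix and growth signals. PDK4, which restrains pyruvate oxidation, was at least 167-fold lower in LNCaP, and FABP5, a fatty acid carrier, at least 228-fold lower. GJA1, the alpha 1 gap junction protein, read 11.71, 11.55 and 11.60 in 22Rv1 and 2.63, 2.56 and 2.52 in LNCaP (at least 196-fold lower). PLOD2, a collagen lysyl hydroxylase, was at least 150.1-fold lower, and TIMP1, an inhibitor of matrix metalloproteinases, at least 119-fold lower. BMP2, a secreted morphogen, read 10.65, 10.93 and 10.97 in 22Rv1 and 2.40, 2.39 and 2.61 in LNCaP (at least 115-fold lower). LGR5, the R-spondin receptor of intestinal stem cells, read 11.05, 10.67 and 11.19 and 2.71, 2.83 and 2.74 (at least 125-fold lower). The groups did not overlap in any of them, again as the choice of named genes required. TSPAN8, a tetraspanin, differed by -8.83 ± 0.13 with 2 of 3 LNCaP arrays under 4, and CBLN2, a synaptic organiser, by -8.49 ± 0.14 with 1 of 3 under 4. GUCY1A2, a subunit of soluble guanylate cyclase, was 269-fold lower and BEX1 263-fold. CACNA2D1, a calcium channel subunit (at least 104-fold), CNN3, a calponin (at least 111-fold), S100A10, a partner of annexin A2 (at least 148-fold), RASGEF1A (at least 93.4-fold), PEG10 and CTAG2 made up the rest. In 15 of these 20 the LNCaP arrays all read under 4. Each gene is given by its brightest probe set. Averaging all its probe sets gave smaller differences for many of these genes, as for ID4 (-5.29) and TM4SF1 (4.6). Call and direction were kept in the 50 genes of the naming rule that had a value there (RUNX2 and JAK1 had none). Of the 3337 genes passing the 2-fold rule, 2227 kept that call with the mean of all probe sets. Of 1407 such genes with over 1 probe set past the filter on low values, 186 had a probe set called the other way. With the 3 scramble arrays in place of 22Rv1 control, an alternative chosen after seeing the data, 22 of the 52 genes of the naming rule moved by over 1.5 times.

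A second pair of groups allowed the same contrast in other arrays. LNCaP and 22Rv1 cells that both overexpressed ONECUT2 share no array with the controls, although they carry the construct. In that pair 53.2% of genes had an adjusted p under 0.05 in limma, and 29.8% passed the 2-fold rule, 10.4% higher and 19.4% lower in LNCaP. Of the 1819 genes lower in LNCaP control by the 2-fold rule, 1232 (67.7%) were also lower there by that rule and 11 were higher. Of the 1518 genes higher in LNCaP control, 672 (44.3%) were also higher and 19 lower. The LNCaP overexpression arrays were less alike than those of other groups, with a correlation of 0.9746 between replicates 1 and 2. The counts of 1232 and 672 were 1235 and 667 without replicate 1, and 1220 and 633 without replicate 3.

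All 20 of the genes named as lowest in LNCaP passed the 2-fold rule in the same direction in the overexpression pair. ALB read 10.96 in 22Rv1 overexpression and 2.69 in LNCaP overexpression, a difference of -8.27 ± 0.21 (adjusted p = 9.8e-06 in limma). PDK4 differed by -8.04 ± 0.35 and GUCY1A2 by -7.25 ± 0.45. ID4 differed by -7.15 ± 0.20, with LNCaP overexpression at 5.16. Of the 20 highest in LNCaP, 11 passed it there. Among them, C1RL differed by 6.01 ± 0.25 (6.27 in the controls) and PCDHB5 by 5.79 ± 0.48 (5.76). RAB25 differed by 7.88 ± 0.18 (7.34), NLRP2 by 7.84 ± 0.49 (6.53) and EFS by 5.83 ± 0.19 (6.70). The other 9 did not pass, among them TM4SF1 (0.27 ± 0.13, adjusted p = 0.117), S100A7 (0.16 ± 0.11), FCAMR (0.011 ± 0.11) and RUNX2 (-0.42 ± 0.20), for which LNCaP overexpression arrays read near background. UGT2B17 (1.82 ± 1.70) and KLK3 (2.28 ± 1.01) had wide errors. LNCaP overexpression replicate 1 read 9.05 for UGT2B17 and 9.13 for KLK3, against 1.75 and 5.08 in replicate 2 and 3.73 and 5.51 in replicate 3. Without replicate 1 the KLK3 difference in this pair was 1.00 (adjusted p = 0.000575 in limma).

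**Figure D2:**
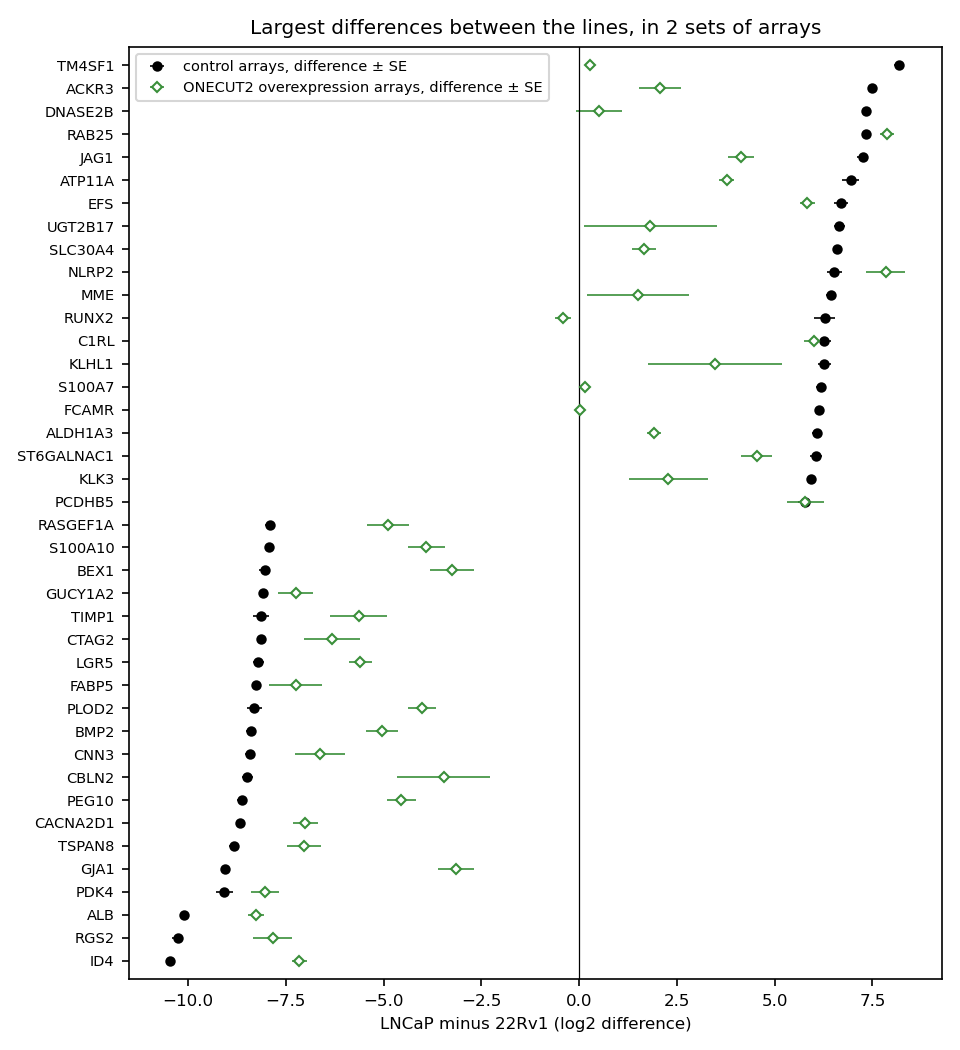
LNCaP minus 22Rv1 on the log2 scale (horizontal axis) for the 20 named genes highest and the 20 named genes lowest in LNCaP control. Black points with SE are from 6 control arrays and green diamonds with SE from 6 overexpression arrays. All 20 genes lower in LNCaP control stay left of 0 in both sets, while TM4SF1, S100A7, FCAMR and RUNX2 lie near 0 in the overexpression arrays.

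Androgen receptor target genes were mostly higher in LNCaP. Of 34 listed targets 28 were tested, and 16 passed the 2-fold rule as higher and 2 as lower, against 12.5% and 15% of all genes. The median difference of the list was 1.22, against -0.04 over all genes. KLK3, prostate-specific antigen, read 13.26, 13.25 and 13.25 on the LNCaP arrays and 7.59, 7.19 and 7.17 on the 22Rv1 arrays. It was 61.2-fold higher in LNCaP (difference 5.94 ± 0.10, adjusted p = 3.03e-13), with no overlap between the lines. KLK2, the neighbouring kallikrein, read 11.39, 11.24 and 11.08 and 9.40, 9.66 and 9.45 and was 3.32-fold higher (adjusted p = 7.64e-09). Their sequences are close to each other, so some of the KLK2 signal may come from KLK3 and the sizes are uncertain. KLK4, also prostate-restricted, differed by 0.36 ± 0.11 and did not pass the 2-fold rule. In the arrays labelled scramble, another group of 22Rv1 cells, KLK3 read 10.04 ± 0.20 (SD, n = 3), between the 7.31 of 22Rv1 control and the 13.25 of LNCaP control. In the 22Rv1 arrays labelled ONECUT2 shRNA its mean was 5.64, below that of 22Rv1 control.

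The 250 bases before the RefSeq start of KLK3 and KLK2 are shown because both genes were higher in LNCaP and both windows hold the same match to an androgen response element (GRCh38.p14, plus strand, chr19:50854665-50854914 for KLK3 and chr19:50873189-50873438 for KLK2). Capitals mark the match to the motif searched on both strands, the half-sites GNACA and GTNCT with any 4 bases between them.
KLK3: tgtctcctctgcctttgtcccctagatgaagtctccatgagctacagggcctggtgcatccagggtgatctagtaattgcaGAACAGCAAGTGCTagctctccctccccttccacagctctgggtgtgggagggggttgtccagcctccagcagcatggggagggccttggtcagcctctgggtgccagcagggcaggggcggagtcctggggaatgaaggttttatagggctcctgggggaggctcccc
KLK2: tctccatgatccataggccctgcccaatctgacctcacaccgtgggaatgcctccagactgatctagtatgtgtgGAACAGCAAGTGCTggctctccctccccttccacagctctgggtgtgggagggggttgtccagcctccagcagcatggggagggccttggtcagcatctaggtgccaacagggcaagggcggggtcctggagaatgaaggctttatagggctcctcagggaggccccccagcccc
The match begins 169 bases before the start of KLK3 and 175 bases before that of KLK2, and it reads GAACAGCAAGTGCT in each. Among 35116 RefSeq windows of this length 208 (0.592%) hold a match. A match describes the letters of the window and says nothing about binding in these cells.

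Several other targets went from background in 22Rv1 to a clear signal in LNCaP. TMPRSS2, the androgen-driven surface protease, read 9.05, 9.22 and 9.29 in LNCaP and 3.76, 3.82 and 3.75 in 22Rv1. It was at least 36.4-fold higher (adjusted p = 1.06e-12). TRPM8, a cold-sensing ion channel, was at least 4.05-fold higher and GNMT, a glycine methyltransferase, at least 9.24-fold. Of targets measured in both lines, ABCC4, a nucleotide and drug exporter, read 12.24, 12.39 and 12.36 against 7.49, 6.93 and 7.14 and was 35.4-fold higher. The transcription factor MAF was 46.5-fold higher, EAF2, an elongation factor partner, 14.9-fold, and ACP3, prostatic acid phosphatase, 3.71-fold. The prostein gene SLC45A3 (2.14-fold) and the metalloreductase STEAP2 (2.08-fold) were closer to the threshold. FKBP5, a chaperone of steroid receptors and a common readout of their activity, read 12.47, 12.93 and 12.83 and 12.28, 12.29 and 12.22 and differed by 0.48 ± 0.094. The exceptions were ZBTB10, 4.94-fold lower in LNCaP, and HPGD, which breaks down prostaglandins and was 3.32-fold lower. In the overexpression pair, 5 of the 16 were again higher by the 2-fold rule and both of the lower ones lower. FOLH1, prostate-specific membrane antigen and often lowered by androgen, was 3.56-fold higher in LNCaP control (6.58, 7.02 and 6.46 against 4.91, 4.82 and 4.84).

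Single enzymes that make or remove androgens differed between the lines, in both directions. UGT2B17, which couples testosterone and its reduced form to glucuronic acid, read 9.91, 9.73 and 9.40 in LNCaP and 3.14, 2.91 and 3.05 in 22Rv1 and was at least 51.3-fold higher in LNCaP (adjusted p = 1.39e-12). UGT2B28 was 5.16-fold higher. UGT2B15, a close relative, read 12.14, 11.92 and 11.87 and 12.13, 12.09 and 12.10, with a difference of -0.13 ± 0.069 (adjusted p = 0.1). A dimmer UGT2B15 probe set gave -0.54 (adjusted p = 0.00145 in a limma fit of all probe sets), also short of 2-fold, and another read under 4 throughout. Against the scramble arrays the UGT2B15 difference of the brightest probe set was 1.28 in the other direction (adjusted p = 5.66e-07 in limma). The aldo-keto reductases ran the other way. AKR1C3, which makes testosterone from androstenedione, read 8.51, 8.39 and 8.34 in 22Rv1 and 3.39, 3.5 and 2.72 in LNCaP and was at least 21.3-fold lower in LNCaP. AKR1C1 was 51.9-fold lower and AKR1C2, which inactivates dihydrotestosterone, 67.5-fold lower. Members of both families are near-identical in sequence, so probe sets may share signal among them. STS, which frees steroids from sulfate, was 5.40-fold higher in LNCaP and HSD17B11 4.77-fold lower. In all, 6 of 24 tested enzymes passed the 2-fold rule as higher and 5 as lower.

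**Figure D3:**
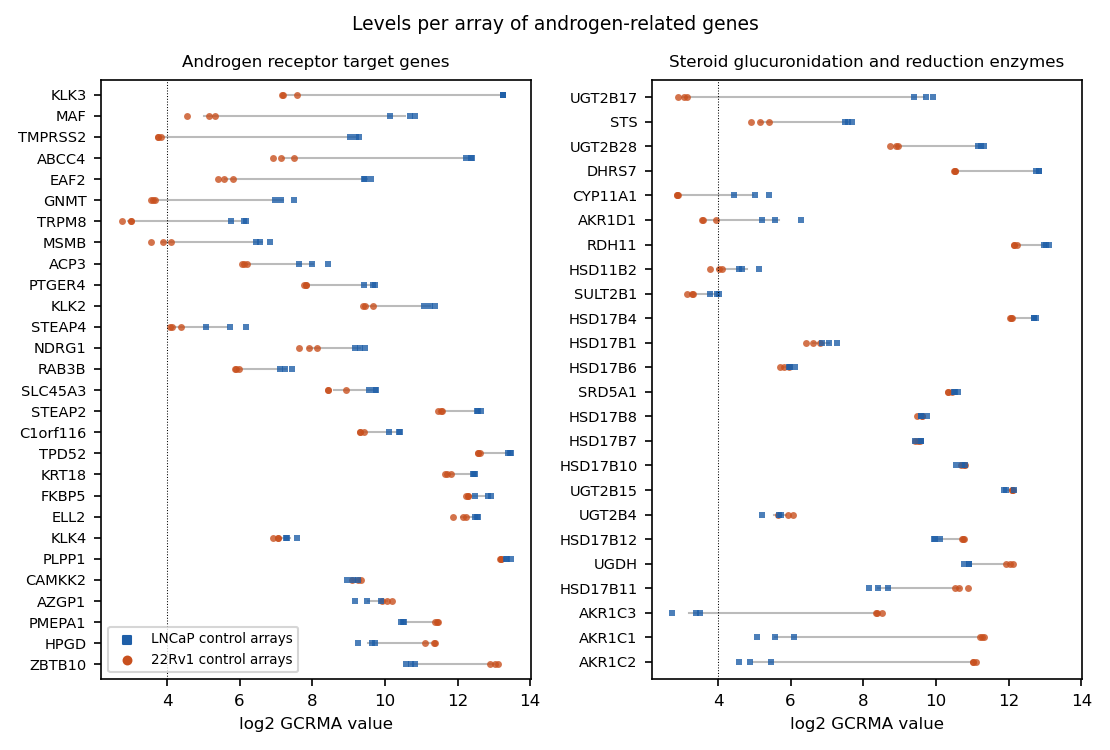
Log2 GCRMA value of each of 6 control arrays (horizontal axis) for 28 androgen receptor target genes and 24 steroid enzymes, with LNCaP as blue squares, 22Rv1 as orange circles and a dotted line at 4. KLK3, MAF, TMPRSS2, ABCC4 and UGT2B17 lie far to the right in LNCaP, and AKR1C1, AKR1C2 and AKR1C3 far to the left.

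Other nuclear receptors differed in single members. Of 24 tested, 3 passed the 2-fold rule as higher in LNCaP, the same share as the 12.5% of all genes, and 6 as lower, against 15%. NR2F1, an orphan receptor of neural and quiescent cells, read 10.36, 10.46 and 10.82 in 22Rv1 and 2.92, 2.43 and 3.02 in LNCaP (at least 93.4-fold lower in LNCaP). HNF4G, a receptor-like factor of gut and kidney, read 9.78, 9.38 and 9.67 and 2.69, 2.86 and 2.69 (at least 48.8-fold lower, adjusted p = 5.89e-13). NR3C1, the glucocorticoid receptor, read 4.01, 4.20 and 4.09 in 22Rv1, close to background, and 1.96, 1.88 and 1.99 in LNCaP. Its bound was at least 1.07-fold, with a difference of -2.16 ± 0.10 (adjusted p = 1.97e-09), while a probe set with a higher mean over the control arrays gave -0.74. It was -4.16 against the scramble arrays and -3.76 ± 0.21 in the overexpression pair. NR3C2, the mineralocorticoid receptor, was 3.48-fold lower. RXRA, the retinoid partner of many receptors, was 3.00-fold higher in LNCaP and VDR, the vitamin D receptor, 2.46-fold.

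Transcription factors of the luminal lineage were divided. Of 17 tested, 4 were higher in LNCaP and 4 lower by the 2-fold rule, and GATA2, which read 9.05, 8.77 and 8.98 and 9.07, 9.0 and 9.02, differed by only -0.096 ± 0.093. SPDEF, an ETS factor of secretory cells, was 4.57-fold higher, CREB3L4, an endoplasmic reticulum-bound factor of prostate, 6.37-fold, and the homeobox factor MEIS1 7.42-fold. TFAP2A was 24.3-fold lower and SOX9, a factor of progenitor cells, differed by -3.63, with 2 of 3 LNCaP arrays under 4. Related ETS factors went opposite ways. ETV1, an oncogenic ETS factor, read 11, 10.57 and 11.03 in LNCaP and 7.78, 7.78 and 7.89 in 22Rv1 and was 8.26-fold higher (adjusted p = 2.68e-10), whereas its relative ETV5 read 3.53, 3.43 and 3.74 and 7.43, 7.66 and 7.63 and was at least 11.9-fold lower. All 5 ETV1 probe sets went the same way. ELK3 was 6.46-fold higher, ELF5 7.37-fold lower and ELF4 4.22-fold lower. In the whole family 3 of 17 were higher and 7 lower.

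ONECUT2, the factor the study manipulated, was lower in LNCaP. Its gene-level probe set read 6.58, 6.53 and 6.72 on the LNCaP arrays and 8.23, 8.15 and 8.25 on the 22Rv1 arrays, with no overlap. The line difference was 3.03-fold (-1.60 ± 0.10, adjusted p = 2.53e-08). Other ONECUT2 probe sets gave -1.39, -1.77, -0.32 and 0.07, the last pair of which read under 4 on all 6 arrays. Against the arrays labelled scramble, which read 6.81 ± 0.24 (SD, n = 3), the difference was -0.19 (adjusted p = 0.217 in limma). The size therefore depends on whether the control or the scramble arrays stand for 22Rv1. In the overexpression pair it was -1.48 ± 0.15. CUX1, a ubiquitous member of the cut homeobox group, differed by -0.35 and CUX2 by 0.96, neither passing the 2-fold rule.

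Gut and liver lineage genes were more often lower in LNCaP. Of 42 listed genes 18 were tested, because 21 failed the filter on low values, and 10 were lower in LNCaP by the 2-fold rule and 1 higher. Beside ALB and HNF4G, SPINK1, a secreted trypsin inhibitor overexpressed in a subset of prostate cancers, read 10.05, 10.33 and 10.06 in 22Rv1 and 2.55, 2.59 and 2.74 in LNCaP (at least 70.9-fold lower in LNCaP, adjusted p = 1.61e-13). VIL1, the microvillus protein villin, read 7.47, 8.03 and 7.64 in 22Rv1 and 3.22, 3.22 and 3.15 in LNCaP (at least 13.1-fold lower). APOH, a plasma apolipoprotein, was at least 4.44-fold lower and the mucin MUC13 at least 6.95-fold lower. CPS1, the first enzyme of the urea cycle, was the exception (7.88, 7.74 and 7.71 against 6.97, 6.81 and 6.5, 2.03-fold higher in LNCaP). The list's median was -1.56. It was -0.48 with the lower line set to 4 where all its arrays read under 4, leaving out genes under 4 on all 6 arrays. GATA6, shared by gut and other epithelia, read 7.09 and 7.17 (difference -0.072). Of the 10 lower genes, 6 were lower again by the 2-fold rule in the overexpression pair.

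Most neuroendocrine markers tested were lower in LNCaP. None of the 22 tested was higher by the 2-fold rule and 16 were lower. The median difference was -1.98 (-1.64 with the lower line set to 4 in the same way). The list was drawn with earlier results of these data known, so its counts depend on that choice. DLL3, given below among surface antigens, was not in this list and was higher in LNCaP. PEG10, a retrotransposon-derived gene tied to neuroendocrine prostate cancer, read 12.42, 12.31 and 12.50 in 22Rv1 and 4.10, 3.56 and 3.73 in LNCaP (difference -8.62 ± 0.13, adjusted p = 1.34e-13), with 2 of 3 LNCaP arrays under 4. SRRM4, a splicing factor of neurons, read 7.97, 7.97 and 8.01 and 1.83, 1.92 and 1.87 (at least 15.8-fold lower). The granule proteins CHGB (7.56, 7.92 and 7.68 in 22Rv1, 2.56, 2.05 and 2.55 in LNCaP) and SCG3 were at least 13.1-fold and at least 8.75-fold lower. CHGA, the clinical marker chromogranin A, was low in both lines at 4.88, 5.14 and 5.05 and 3.52, 3.86 and 3.04, with a bound of at least 2.04-fold. ENO2, neuronal enolase, was at least 33.5-fold lower, SNAP25, which fuses vesicles with the membrane, at least 18.3-fold, and the oncogenic factor MYCN at least 5.61-fold. SYT4, a vesicle calcium sensor, was high in both lines and still 12.8-fold lower in LNCaP (9.11, 8.04 and 8.28 against 12.19, 12.12 and 12.16). Of the defining markers, SYP, NCAM1 and INSM1 read under 4 on all 6 arrays. REST, which represses neuronal genes, read 10.02 and 9.91, a difference of 0.10 ± 0.14 with overlapping arrays. Of the 16 lower markers, 13 were lower again in the overexpression pair.

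Neuronal genes followed the same direction with exceptions. Of 26 tested, 15 were lower in LNCaP by the 2-fold rule and 3 higher. GPM6A, a neuronal membrane glycoprotein, read 10.16, 9.84 and 10.30 in 22Rv1 and 2.53, 2.24 and 2.90 in LNCaP (at least 68.5-fold lower). The synaptic adhesion protein NLGN1 was at least 56.9-fold lower, the neurofilament NEFH at least 28.1-fold, and STMN3, a regulator of microtubules, 58.7-fold. The 3 exceptions were NRP1, a receptor for semaphorins and VEGF, 29.5-fold higher in LNCaP, NLGN4X, at least 9.68-fold higher, and the light neurofilament NEFL, at least 8.17-fold higher. Relatives of the same families went opposite ways, NLGN1 against NLGN4X and NEFH against NEFL.

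**Figure D4:**
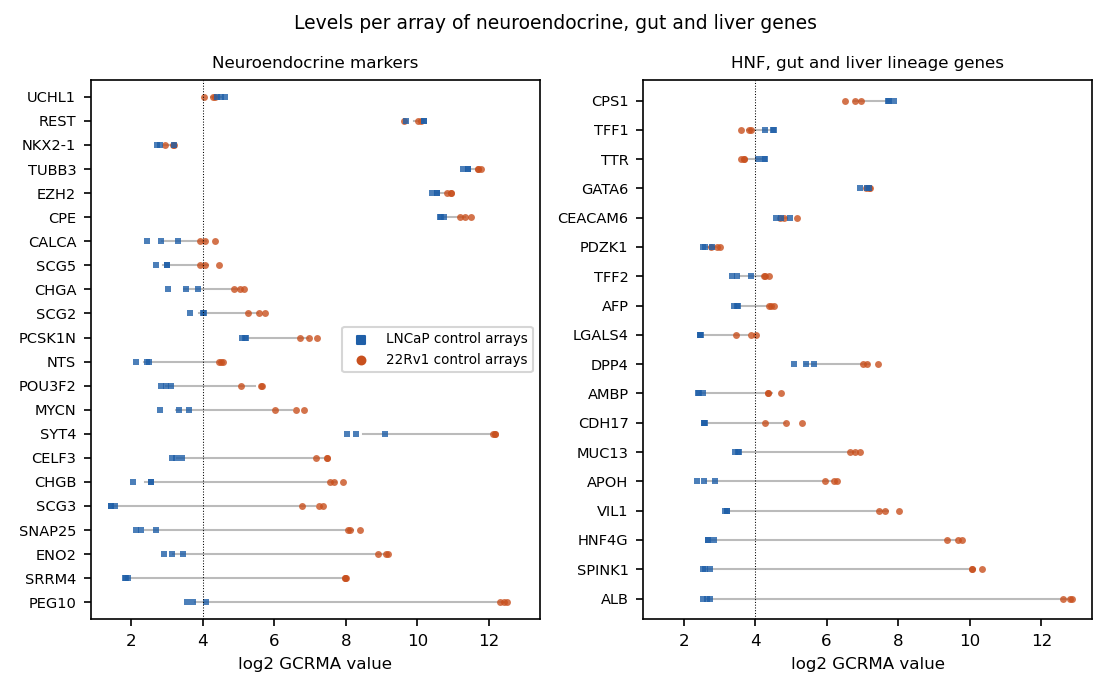
Log2 GCRMA value of each of 6 control arrays (horizontal axis) for 22 neuroendocrine markers and 18 gut and liver genes, with LNCaP as blue squares, 22Rv1 as orange circles and a dotted line at 4. From SCG2 or DPP4 downwards the 22Rv1 arrays lie to the right of the LNCaP arrays, and at the bottom PEG10 and ALB read above 12 in 22Rv1.

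Surface antigens of prostate cancer split evenly, with 8 of 26 higher and 8 lower in LNCaP by the 2-fold rule. CD44, an adhesion receptor used as a stem cell marker, read 8.95, 8.85 and 9.12 in 22Rv1 and 2.63, 2.63 and 2.79 in LNCaP (at least 31.4-fold lower). The complement inhibitor CD55 was at least 35.6-fold lower and the cadherin CDH6 at least 20.4-fold lower. ITGA6, the laminin-binding integrin, was 12.3-fold higher in LNCaP and STEAP1, a target of antibody drugs, 2.58-fold (13.41, 13.36 and 13.22 against 11.96, 11.97 and 11.97). DLL3, an inhibitory Notch ligand and drug target in neuroendocrine tumours, was 4.21-fold higher in LNCaP, against the direction of most neuroendocrine markers.

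Of 27 keratins and junction genes 9 were higher in LNCaP and 6 lower, both above the shares of all genes (12.5% and 15%). DSC2, a desmosomal cadherin, read 11.43, 11.19 and 11.17 in LNCaP and 6.05, 5.66 and 5.91 in 22Rv1 (41.8-fold higher), and the tight junction protein CLDN8 was at least 11.9-fold higher. Another claudin, CLDN11, read 8.97, 9.14 and 9.13 in 22Rv1 and 2.22, 1.72 and 2.39 in LNCaP (at least 33.8-fold lower), and KRT19 was 11.5-fold lower. P-cadherin, CDH3, was at least 15.5-fold lower, while E-cadherin, CDH1, read 12.59 and 12.28 and differed by 0.30. Of 5 connexins tested none was higher in LNCaP and 3 were lower by the 2-fold rule. Beside GJA1 these were GJB2, a gap junction protein, at 10.11, 9.77 and 10.01 in 22Rv1 and 3.32, 3.18 and 2.67 in LNCaP (at least 62.5-fold lower), and GJC1 (2.79-fold).

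Mesenchymal genes did not move together. SNAI2, a repressor that drives epithelial-mesenchymal transition, read 7.97, 8.47 and 7.35 in LNCaP and 3.08, 3.18 and 3.22 in 22Rv1 and was at least 15.3-fold higher. LGALS1, galectin 1, read 7.84, 8.04 and 8.12 in 22Rv1 and 1.43, 1.01 and 1.29 in LNCaP (at least 16.0-fold lower in LNCaP). N-cadherin, CDH2, was at least 2.93-fold lower and CAV1, the caveola protein, at least 4.63-fold. In this list 5 of 14 were higher and 5 lower. VIM, vimentin, differed by -0.98 and did not pass the 2-fold rule. Matrix genes gave 4 higher and 8 lower of 25. NID1, which links basement membrane networks, was at least 15-fold lower, the proteoglycan VCAN at least 8.43-fold and the laminin chain LAMB1 12.1-fold, whereas another laminin chain, LAMA1, was at least 9.23-fold higher in LNCaP (6.30, 7.52 and 7.80 against 2.81, 2.72 and 2.75).

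Receptor tyrosine kinases and their ligands were more often lower in LNCaP, with 13 of 33 tested against 3 higher, and 9 of the lower ones were lower again in the overexpression pair. EGFR, the receptor for epidermal growth factor, read 12.12, 12.13 and 12.31 in 22Rv1 and 8.20, 8.13 and 8.30 in LNCaP (15.7-fold lower, adjusted p = 1.05e-12). EGF itself ran the other way, at 7.99, 7.50 and 7.96 in LNCaP and 2.97, 2.80 and 2.87 in 22Rv1 (at least 14.1-fold higher). MET was at least 3.71-fold lower and its ligand HGF at least 5.67-fold lower. FGFR3 (at least 5.73-fold), ERBB4 (at least 5.96-fold) and the ligand PDGFC (difference -4.55, 2 of 3 LNCaP arrays under 4) were also lower, while ERBB2 and ERBB3 differed by 0.69 and 0.49. The receptor ROR1 was at least 6.61-fold higher in LNCaP.

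Genes that report ERK activity had a similar balance (2 higher and 9 lower of 22). DUSP6, a phosphatase induced by ERK that switches it off, read 8.82, 8.92 and 9.05 in 22Rv1 and 2.96, 3.46 and 3.14 in LNCaP (at least 30.5-fold lower). EGR1, an immediate early factor, read 8.94, 9.32 and 9.27 and 5.08, 4.96 and 4.73 (19.1-fold lower), and SPRY2, a feedback inhibitor, was 9.37-fold lower. DUSP4 was 4.36-fold higher in LNCaP and FOSL2 3.85-fold. FOS passed the rule as lower but read under 4 on all 6 arrays. Of the 9 lower genes, 3 were lower again by the 2-fold rule in the overexpression pair, where PHLDA1, for instance, had a difference of 0.76 against -3.65 in the controls.

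In the PI3K and insulin list 8 of 30 were higher in LNCaP and 5 lower, against 12.5% and 15% of all genes, so the lower share was near that background. PIK3CD, a catalytic subunit best known in leukocytes, read 8.85, 8.82 and 9.03 in LNCaP and 4.17, 4.18 and 4.47 in 22Rv1 (24.7-fold higher), and the regulatory subunit PIK3R1 was 5.53-fold higher. IGF1R was 4.58-fold higher, whereas the adaptors of insulin receptors IRS2 (11.96, 11.95 and 11.80 in 22Rv1, 7.85, 7.43 and 7.94 in LNCaP) and IRS1 were 17.9-fold and 2.72-fold lower. AKT1 was 5.43-fold lower and AKT2 differed by 0.084. SGK1, a kinase related to AKT, was at least 2.77-fold higher.

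All 4 inhibitors of differentiation were lower in LNCaP, with ID1 at 5.91-fold, ID2 at 3.49-fold and ID3 at 7.78-fold beside ID4. ID1 read 11.57, 11.82 and 11.59 in 22Rv1 and 9.38, 9.06 and 8.85 in LNCaP. In the overexpression pair ID1 differed by 1.14 ± 0.21 and ID2 by 0.20 ± 0.23, (adjusted p = 0.00386 and 0.495 in limma), while ID3 (-1.64 ± 0.20) and ID4 were lower again. The wider list of TGF-beta, BMP and ID genes gave 3 higher and 11 lower of 34. SMAD7, the inhibitory SMAD, was 4.43-fold lower and the ligand TGFB1 at least 2.67-fold, while SMAD2 differed by -0.021 and SMAD1 by -0.015. GDF15, a stress-induced ligand, was 2.37-fold higher.

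Wnt genes showed 2 higher and 6 lower of 31, against 12.5% and 15% of all genes, so the lower share was near that background. DKK1, a secreted Wnt inhibitor, read 10.45, 10.42 and 10.43 in 22Rv1 and 2.62, 3.17 and 3.16 in LNCaP (at least 86.5-fold lower), and the nuclear partner LEF1 was 5.01-fold lower. WNT5A, a ligand of the beta-catenin-independent branch, was 11.1-fold higher in LNCaP (8.01, 8.22 and 8.44 against 4.80, 4.17 and 5.28) and TNFRSF19 13.2-fold. AXIN2, the common readout of beta-catenin activity, read 5.52 and 5.76, a difference of -0.24 ± 0.13. In the Notch list 4 were higher and 3 lower of 21, against 12.5% and 15% of all genes, so the lower share was near that background. The list's median difference was -0.006. JAG1 was far higher in LNCaP and NOTCH2 2.51-fold higher, while the target genes HES1 (9.64, 9.96 and 9.65 in 22Rv1, 5.95, 6.28 and 5.71 in LNCaP) and HEY1 were 13.7-fold and 2.78-fold lower. HES6, which counteracts HES1, was 18.2-fold higher.

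Among cytokine signalling genes, SOCS2 inhibits growth hormone and STAT5 signals. It read 9.96, 10.73 and 10.56 in LNCaP and 4.82, 4.82 and 4.70 in 22Rv1 and was 49.7-fold higher (adjusted p = 2.44e-11). LIFR, the receptor for leukaemia inhibitory factor, was 7.57-fold higher and IL6R 5.35-fold higher. STAT6, which relays interleukin 4, differed by -3.35, with 2 of 3 LNCaP arrays under 4. JAK1, the kinase shared by interferon receptors, read 4.40, 4.28 and 3.96 and 4.85, 4.99 and 4.78, near background in both lines. Its difference was -0.66 ± 0.13 (adjusted p = 0.000692), which did not pass the 2-fold rule. Over the list 3 were higher and 5 lower of 31.

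Interferon-stimulated genes were more often higher in LNCaP, with 12 of 30 against 3 lower, and 8 of the 12 were higher again in the overexpression pair. IFI6 read 6.92, 7.21 and 7.10 in LNCaP and 3.44, 3.91 and 3.63 in 22Rv1 (at least 8.45-fold higher), IFI44 was at least 5.39-fold higher and HERC5, the ligase for ISG15, 5.05-fold. ISG15 itself ran the other way (8.58, 8.66 and 8.68 against 9.99, 10.06 and 10.12, 2.65-fold lower), as did IFITM1 (5.34-fold lower). The list's median of 0.59 shrank to 0.21 with the lower line set to 4 as in the gut and liver list. Antigen presentation gave 6 higher and 1 lower of 24. HLA-B was 4.49-fold higher in LNCaP and HLA-C 3.76-fold, although probe sets of the HLA family can share signal. B2M, the light chain of class I molecules, read 13.13, 13.23 and 13.22 and 12.67, 12.83 and 12.69, a difference of 0.46 ± 0.053 (adjusted p = 6.15e-06). MICB, a stress ligand of natural killer cells, was at least 8.53-fold lower.

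Few mitotic genes passed the 2-fold rule. Of 32 mitotic genes tested none was higher by the 2-fold rule and 3 were lower in LNCaP, namely ASPM (4.44-fold), KIF11 (2.90-fold) and MKI67 (2.00-fold). Of the 32, 20 had an adjusted p under 0.05 as lower and 3 as higher, and the median difference was -0.37. MKI67, the proliferation marker Ki-67, read 9.18, 8.61 and 9.09 and 9.93, 10.01 and 9.94. Replication genes gave 1 higher and 6 lower of 31, with a median of -0.43 and E2F2 at 3.53-fold lower. CCND1, cyclin D1, read 13.33, 13.17 and 13.30 in 22Rv1 and 11.19, 10.95 and 11.14 in LNCaP (4.51-fold lower), and the inhibitors CDKN1C and CDKN1B were 4.57-fold and 2.40-fold lower. CDKN1A, the p21 inhibitor, read 7.19, 6.98 and 7.24 in LNCaP and 5.83, 6.03 and 5.99 in 22Rv1 and was 2.28-fold higher (adjusted p = 1.4e-06).

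CDKN1A belongs to the p53 targets, where 6 of 22 were higher in LNCaP and none lower by the 2-fold rule. The death receptor TNFRSF10A was 4.93-fold higher and SESN1, a stress-induced regulator of TOR, 3.71-fold. MDM2, the p53 ubiquitin ligase, read 12.26 and 12.02 and differed by 0.24. In the overexpression pair 5 of the 6 were higher again, CDKN1A by 4.04 ± 0.17. In the BCL2 family 14 of 16 genes did not pass the rule. DNA repair lists moved in a few members. The double-strand break nuclease MRE11 was 7.46-fold higher in LNCaP (8.71, 8.59 and 8.65 against 5.60, 5.77 and 5.88), BARD1 2.19-fold, and the mismatch repair genes MSH3 and MLH3 4.16-fold and 3.67-fold higher.

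Detoxification genes gave 7 higher and 14 lower of 41. NQO1, a quinone reductase under NRF2 control, read 11.86, 12.69 and 12.06 in LNCaP and 8.15, 8.63 and 8.28 in 22Rv1 (14.4-fold higher, adjusted p = 2.85e-09). The NADPH-producing ME1 was 9.08-fold higher and the drug exporter ABCC1 6.66-fold. ALDH1A1, which makes retinoic acid, read 10.56, 10.76 and 10.65 in 22Rv1 and 3.12, 2.72 and 2.78 in LNCaP (at least 101-fold lower), opposite in direction to ALDH1A3. ALDH7A1 was at least 46.0-fold lower and CYP1B1 at least 4.31-fold. Glutathione transferases split, with GSTM3 7.71-fold higher and GSTM2 and GSTM4 at least 4.96-fold and at least 5.75-fold lower, within a family whose members are close in sequence. GSTP1, often silenced by methylation in prostate cancer, read 3.03, 3.16 and 3.25 in LNCaP and 3.5, 3.58 and 3.29 in 22Rv1, under 4 throughout, and was not tested. HMOX1 differed by 0.13.

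Lipid, oxygen and stress genes differed in single members. ACSL1, which activates fatty acids, was 8.74-fold higher in LNCaP (13.19, 12.56 and 12.90 against 9.82, 9.49 and 9.95), the elongase ELOVL7 7.59-fold and the desaturase FADS2 5.30-fold, while FASN read 9.54 and 9.55. In that list 5 were higher and 1 lower of 28. Hypoxia and glycolysis gave 6 and 2 of 33, with ANKRD37 12-fold higher and GAPDH at 14.26 and 14.35. SLC7A5, the large neutral amino acid transporter, read 11.48, 11.65 and 11.73 in 22Rv1 and 4.47, 4.52 and 4.25 in LNCaP (148-fold lower), and its partner SLC3A2 was 3.67-fold lower, in a stress list with 4 higher and 5 lower of 34. Of 16 polyamine genes 2 were higher, namely ARG2, which makes ornithine, at 17.1-fold, and SAT1, the catabolic acetyltransferase, at 9.51-fold higher (13.33, 13.34 and 13.45 against 10.18, 9.99 and 10.20). Of the 23 zinc transporters and metallothioneins tested, SLC30A4 alone was higher by the 2-fold rule, and MT1E was 5.43-fold lower.

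Imprinted and germline genes included several that read high in 1 line and at background in the other. PEG10 and its neighbour on chromosome 7, SGCE, were both higher in 22Rv1, SGCE at 10.38, 10.28 and 10.28 against 3.43, 3.87 and 3.53 in LNCaP (at least 79.5-fold lower). MEST, also imprinted, was 53.2-fold lower, while PEG3 read 12.28, 12.02 and 12.14 in LNCaP and 7.82, 7.77 and 7.73 in 22Rv1 and was 20.7-fold higher. In all 4 of 15 imprinted genes were higher and 6 lower. Among cancer-testis genes (4 higher, 5 lower of 14), CTAG2 read 10.40, 10.40 and 10.52 in 22Rv1 and 2.28, 2.29 and 2.32 in LNCaP (at least 86.8-fold lower), and TEX15 and SSX1 were at least 26.2-fold and at least 45.4-fold lower. MAGEA4 differed by -6.89, with 2 of 3 LNCaP arrays under 4. DDX43 was at least 4.21-fold higher. MAGEA6 (12.99 and 12.85) differed little, within a family of near-identical genes. All 9 calls of this list recurred in the overexpression pair, but 1 of them, MAGEA10, read under 4 on all 6 control arrays. MGMT, a DNA repair gene often methylated in tumours, was at least 6.96-fold higher in LNCaP, and PTGS2, the inducible cyclooxygenase, at least 1.95-fold lower. HOXB7 was 12.3-fold lower and HOXC6 2.62-fold higher.

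The other lists are given by their counts under the 2-fold rule. Luminal markers, which overlap the androgen receptor targets, had 7 higher and 1 lower of 13. Cyclins and CDK inhibitors gave 1 higher and 5 lower of 18. Homologous recombination had 2 higher of 20, and mismatch repair 2 of 5, with none lower in either. Chemokines and cytokines gave 4 higher and 1 lower of 18, and retinoic acid genes 2 and 3 of 13. Among genes often methylated in prostate cancer 2 were higher and 7 lower of 18, and among HOX genes 1 and 3 of 15. Of 7 long noncoding RNAs 1 was higher.

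**Figure D5:**
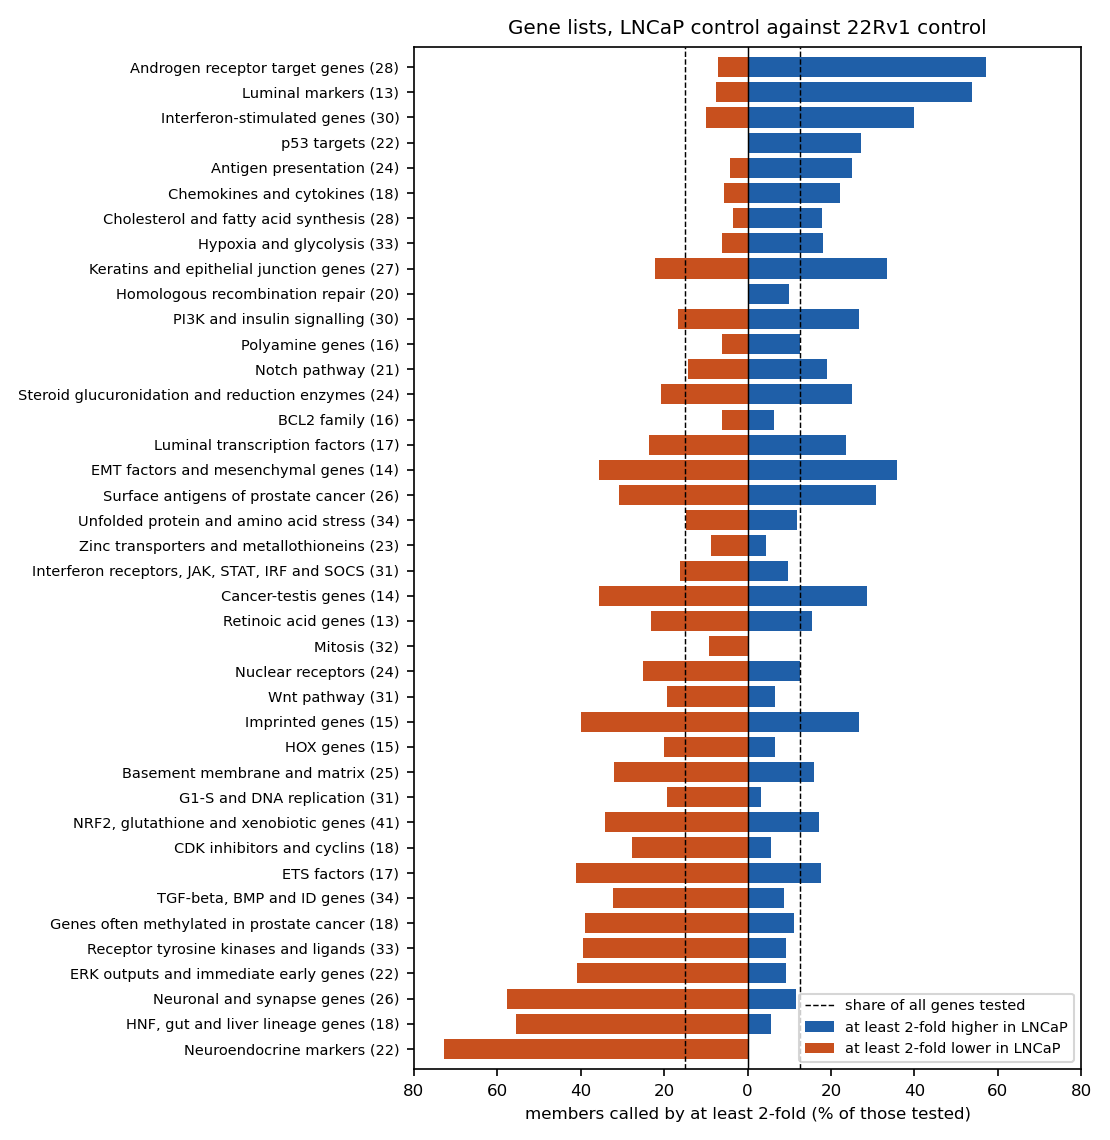
Share of tested members (horizontal axis, %) of each gene list with at least 12 members tested that was higher (blue, right) or lower (orange, left) in LNCaP control by the 2-fold rule, with the number tested in brackets. Dashed lines mark the shares over all genes, 12.5% and 15%, and androgen receptor targets at the top and neuroendocrine markers at the bottom lie farthest beyond them.

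Median differences varied from chromosome to chromosome. The chromosome of each gene came from the RefSeq annotation. On chromosome 12 the median difference over 658 genes was -0.39, and 25.8% of its genes had a positive difference. Chromosomes 7 and 3 had medians of -0.36 and -0.35. The highest medians were 0.28 on chromosome 21, 0.20 on chromosome 4 and 0.16 on chromosome 15. By the 2-fold rule 173 genes of chromosome 12 were lower in LNCaP and 36 higher, while on chromosome 21 the counts were 13 lower and 30 higher. In the overexpression pair the medians were -0.54, -0.44 and -0.53 on chromosomes 12, 7 and 3, and 0.01, -0.05 and 0.07 on chromosomes 21, 4 and 15. The sign was kept on all but chromosome 4, and chromosomes 21 and 15 had a smaller excess. These medians describe the arrays, and DNA copy number was not measured.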

How the data were processed

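The authors deposited log2 expression values made with GCRMA, per the submitters' processing notes, for 54675 probe sets on 18 arrays. For GCRMA, neither the version nor whether 1 run covered all arrays is stated: both were not given in the sources used. GCRMA subtracts background by probe sequence, so values below 4 are set mostly by that model. The platform table gave 41097 probe sets 1 gene symbol (41043 of them updated through the gene identifier), 1801 several and 11721 none. Where a gene had several single-symbol probe sets, the brightest on average across the 18 arrays was used, and the gene was tested if it read above 4 on 3 or more of them. Genes without such a probe set were not analysed here.

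The 6 control arrays were fitted in limma 3.58.1 (R 4.3.3) with lmFit and eBayes (trend and robust options). Benjamini-Hochberg adjustment ran over 12159 genes. All adjusted p-values come from limma. The overexpression pair was fitted the same way, and interactions used the 12 arrays of both pairs. The scripts were tested on simulated data. Named genes were the 20 largest non-overlapping differences each way among called genes, 15 always-named genes with a probe set, and members of 47 gene lists. The 20 were taken after leaving out uncharacterised, noncoding, antisense and open-reading-frame symbols, pseudogenes, immunoglobulin segments, XIST and Y-linked genes. The members and lists were chosen with earlier results of these data known. Alternatives covered the arrays in the fit, a replicate block, scaling, the filter, the choice of probe set, the error model and each array left out. Arrays have no read depth, and their number limits the precision. Promoters came from RefSeq (GRCh38.p14).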

Additional observations from a re-analysis of the deposited data

Results flagged for a closer look

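The line difference changed between the controls and the overexpression pair in 38 of 52 named genes (interaction term in limma over 12 arrays, adjusted p under 0.05). In 34 of them it was smaller in the overexpression pair. Most of the named genes were picked for a large difference in the controls, which by itself favours a smaller one in other arrays. The share of all genes with such a change was not counted. The 10 given here either lost the 2-fold call of the controls in that pair or had the opposite sign there. The change was -7.91 ± 0.20 for TM4SF1 (adjusted p = 1.47e-09), -6.84 ± 0.65 for DNASE2B, -6.70 ± 0.42 for RUNX2, -6.13 ± 0.17 for FCAMR and -6.01 ± 0.17 for S100A7 (adjusted p = 1.54e-05, 1.03e-06, 2.33e-09 and 2.33e-09). It was -4.94 ± 1.43 for MME (adjusted p = 0.0177). Among androgen receptor targets and ETS factors it was -3.66 ± 1.10 for KLK3, -3.42 ± 0.86 for KLK2, -4.47 ± 0.26 for TMPRSS2 and -4.56 ± 1.52 for ETV1 (adjusted p = 0.0209, 0.00879, 5.23e-07 and 0.0335). LNCaP overexpression replicate 1 stood apart for several of them. For KLK3 it read 9.13 against 5.08 and 5.51 in replicates 2 and 3, for MME 7.93 against 2.75 and 3.01, and for ETV1 9.87 against 3.95 and 5.26. Without it the difference in the overexpression pair was -2.68 for KLK2, -3.27 for ETV1, 0.69 for TMPRSS2 and -0.18 for MME. For KLK3 it was then 1.00 (adjusted p = 0.000575 in limma), which just passed the 2-fold rule in the direction of the controls.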

How the results depend on the processing

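Over the settings run, 7374 (filter at 6) to 10334 genes (no filter) were called, against 9189. These are counts and not shares, because 19775 genes entered with no filter, 12159 in the main fit and fewer with the filter at 6. With each control array left out in turn the count was 8711 to 8955. The 2-fold rule was passed by 2439 (mean of all probe sets) to 3579 genes (scramble arrays), against 3337. The share of calls higher in LNCaP ran from 44.0% to 50.5%. With a replicate block the count was 9337. Same-numbered arrays correlated at 0.0567 to 0.1366 in their deviations, and other pairs at -0.0883 to 0.0166. Every array correlated best with its own number. The main fit did not pair arrays by number, and whether the number marks a true pairing was not tested. Named genes moved by over 1.5 times in 29 of 50 cases with the mean of all probe sets, 22 of 52 with scramble arrays and 1 (NR3C1) with the probe set chosen on the control arrays. The mean of all probe sets gave no value for RUNX2 and JAK1, and the filter at 6 none for JAK1. Against scramble arrays UGT2B15 reversed to 1.28 and ONECUT2 lost its call; the cause was not tested. UGT2B15 was called under the replicate block (adjusted p = 0.0441), after quantile normalization (-0.20) and without LNCaP control replicate 1 (-0.21). With centred arrays the zinc and long noncoding RNA lists each had 2 higher members. In the overexpression pair 2499 genes were called higher, 1928 to 3811 with LNCaP overexpression replicate 3 or 1 left out. Values below 4 limit what the arrays can resolve.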
